A study of Mus musculus with 32 samples.

Results

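The comparison described here asked whether the liver answered a hyperinsulinemic-euglycemic clamp differently in mice that had been given palm oil. Its measure is the interaction: the clamped-minus-basal difference after palm oil minus the clamped-minus-basal difference after water, on the log2 scale, so that a value of 1 is a 2-fold difference between the responses. All genes with 1 symbol entered, which gave 22180 genes out of the 41345 probe sets of the table, and all 32 arrays were used, with 1 array for each mouse.

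All mice were male wild-type C57BL/6NTac animals aged 14 weeks and fasted for 10 h before a gavage of palm oil (Landkrone, 2 g/kg) or of water, called control below. Basal mice, 9 after palm oil and 7 control, were killed under isoflurane 6 h after the gavage. Clamped mice, again 9 and 7, had earlier received a jugular vein catheter under ketamine and xylazine. Their clamp began 6 h after the gavage, with a tracer infusion followed by insulin at 15 pmol/kg/min and glucose as needed to hold blood glucose steady. They also received a labelled deoxyglucose and were killed with intravenous ketamine and xylazine. Clamped-minus-basal differences therefore hold insulin together with surgery, infusion, later sampling and another anaesthetic, which cannot be told apart. Both gavage groups share all of these steps. Animal numbers also separate the 2 states, with 15 to 32 in clamped and 33 to 52 in basal mice, and cannot be told apart from them. The replicate numbers of the groups name animals and pair none of them.

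In a clamp, insulin is infused while glucose is given to keep its level in blood constant. In liver, insulin acts through its receptor, IRS proteins and AKT. It keeps FOXO1 out of the nucleus, lowers the transcription of gluconeogenic genes such as G6pc, and favours glycogen and fat synthesis. Palm oil is rich in palmitate, a saturated fatty acid known to disturb insulin action in liver and, in cultured cells, to evoke endoplasmic reticulum stress. An interaction would show as a clamp response that is smaller, larger or turned after palm oil.

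The values are log2 array signals. Medians ranged from 1.65 to 1.77 over the arrays, whose number limits the precision. Hepatocyte markers, 15 genes such as Alb and Ttr, had mean levels of 9.07 to 9.57 on all arrays. The 7 basal animals with numbers from 44 on (4 control, 3 palm oil) had narrower interquartile ranges, 2.44 to 2.54, than the other 9 basal animals (2.72 to 2.96) and the 16 clamped arrays (2.64 to 2.85). Transcripts of pancreatic acinar cells averaged more than 6 on 12 arrays, of which 4 were control basal, 1 control clamped, 5 palm oil basal and 2 palm oil clamped. The part of these differences in the results below was not tested beyond the values given with and without such arrays.

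No gene passed for the interaction. Of the 22180 genes, 0 had an adjusted p under 0.05 (0%; limma with Benjamini-Hochberg adjustment), and the smallest adjusted p was 0.53. At an unadjusted p under 0.05 there were 773 genes (3.49%), 384 above 0 (1.73%) and 389 below 0 (1.75%), where 1109 would be expected if no gene had an interaction. The median interaction was 0.00, and its standard error was 0.19 at the median gene. The 95% interval lay between -1 and 1 for 95.2% of genes, a share that includes dim genes whose compressed signal can hide larger RNA differences. Absence of calls does not show that the responses were alike, and the sizes below say what the intervals leave room for. Of the 102 genes whose interactions were followed over all alternatives, 24 changed sign in at least 1 of them, 51 others moved by over 1.5 times and 27 did neither, and several values below are therefore also given without single arrays or sets of arrays.

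Each side of the interaction held many called genes. In control mice the clamp raised 1033 genes (4.66%) and lowered 907 (4.09%), and after palm oil it raised 835 (3.76%) and lowered 843 (3.8%). These responses come from different animals and share no array. Of the rising genes 590 passed on both sides, 57.1% of the control list and 70.7% of the palm oil list. Of the falling genes 502 passed on both sides, 55.4% and 59.6% of the lists. No gene passed in opposite directions. Of the 443 rising genes called in control mice alone, 428 were also above 0 after palm oil, and of the 405 falling genes 377 were also below 0. Being called in 1 group and not in the other does not by itself show a difference between them, and the interaction itself was called for 0 genes.

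**Figure D1:**
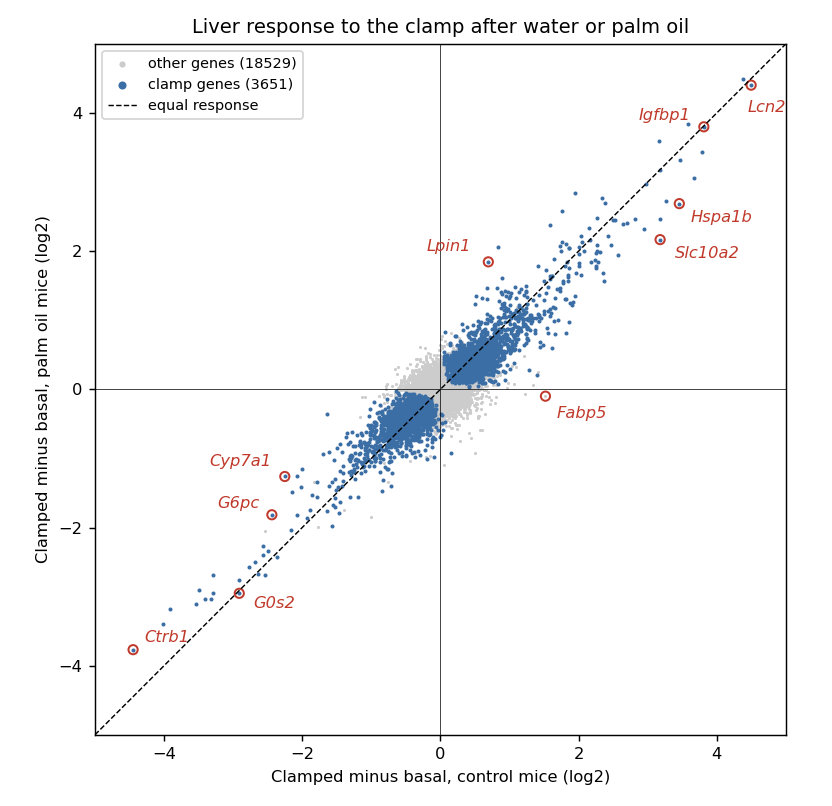
Clamped minus basal difference (log2) of each of 22180 genes in control mice (horizontal axis) and in palm oil mice (vertical axis). Blue points are the 3651 genes whose mean clamp response passed, grey points the other 18529, red circles are genes named in the text, and the dashed line marks equal responses: blue points run along it from Ctrb1 at the lower left to Lcn2 at the upper right, with Fabp5 below it and Lpin1 above it.

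To ask whether responses were smaller or larger as a whole, the genes were chosen by their mean clamp response, weighted by group size. Its estimate is uncorrelated with the interaction if the spread is equal in all groups. This choice gave 3651 clamp genes (16.5%), 1823 that rose (8.22%) and 1828 that fell (8.24%). Their median SD was 0.26 in control basal, 0.28 in control clamped, 0.27 in palm oil basal and 0.24 in palm oil clamped mice. Their 2 responses correlated across genes with a Pearson r of 0.946, a description since genes are no replicates. The interaction, turned so that a value below 0 is a smaller response after palm oil, had a median of -0.07, against -0.03 over all genes. It was below 0 for 2379 clamp genes (65.2%) and for 55.8% of all genes. Genes with a mean of at least 4 came close to the clamp genes, with 62.65% below 0 and a median of -0.05. The median size of the response was 0.46 in control and 0.39 in palm oil mice. The interaction of 153 clamp genes had an unadjusted p under 0.05 (4.19%), a smaller response for 110 and a larger one for 43. Among the 317 clamp genes with a mean response of at least 1, 214 had the smaller response after palm oil, with a median of -0.13. For 239 of the 317 the interval of the interaction lay within plus or minus the size of the response, and for 56 within the response divided by 2.

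The 10 genes with the largest rises passed in both gavage groups, and the intervals of their interactions crossed 0. Lcn2, which encodes the iron-siderophore binding protein lipocalin 2 of the acute phase, lay at 3.55, 4.58 and 6.97 in control basal mice (lowest, median, highest) and at 8.53, 9.59 and 10.10 in control clamped mice. In palm oil mice it lay at 3.89, 4.64 and 5.84 in basal and at 8.21, 9.29 and 10.12 in clamped animals. The basal and clamped mice did not overlap in either gavage group, and the interaction was -0.09 ± 0.50 (95% interval -1.12 to 0.93). Igfbp1, which binds insulin-like growth factors and is lowered by insulin in textbook accounts, rose 14.1-fold with the clamp in control mice and 13.9-fold after palm oil. Its interaction was -0.01 ± 0.48, with -0.86 without the arrays high in acinar transcripts and 0.38 with basal animals from number 44 on left out.

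Other genes also rose on both sides. Egr1, an immediate early transcription factor, rose 20.8-fold and 22.6-fold, Btg2, an antiproliferative gene, 11-fold and 9.98-fold, and Cdkn1a, the cell cycle inhibitor p21, 9.10-fold and 9.05-fold (control, then palm oil). The inflammatory genes S100a8, Cxcl1, Saa2 and Saa3 had interactions of 0.27 ± 0.49, 0.42 ± 0.47, -0.36 ± 0.56 and -0.62 ± 0.62. Hspa1b, an inducible Hsp70 chaperone, rose 11-fold in control and 6.45-fold in palm oil mice. Its interaction of -0.77 ± 0.66 was -0.49 without control clamped replicate 1 and -1.22 without replicate 6. Without the basal arrays numbered 44 or higher Cxcl1 stood at -0.16 and S100a8 at -0.32. Neutrophil markers, a list of 16 genes that includes S100a8, had a median interaction of 0.00, and their mean level overlapped in no gavage group between basal (1.71 to 2.37) and clamped mice (2.70 to 3.49). In whole liver RNA, more cells of a type and more RNA per cell cannot be told apart.

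On the falling side the tightest value was that of G0s2, which blocks the lipase ATGL. It lay at 7.42, 7.73 and 8.04 in control basal and at 4.46, 4.70 and 5.93 in control clamped mice. The palm oil mice lay at 7.71, 8.15 and 8.81 basal and at 4.72, 5.33 and 5.75 clamped. No basal mouse overlapped a clamped one, and the interaction was -0.04 ± 0.25 (-0.55 to 0.47), beside falls of 2.91 and 2.95. The 9 other largest falls were pancreatic acinar genes (Ctrb1, Sycn, Clps, Cel, Cpa1, Reg1, Cpb1, Prss2 and Cela3b). Ctrb1, a chymotrypsinogen, ranged from 3.54 to 11.17 in control basal and from 1.35 to 11.09 in control clamped mice, and its interaction was 0.68 ± 2.24. Their values span most of the scale within each group, and none was called within a single gavage group.

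**Figure D2:**
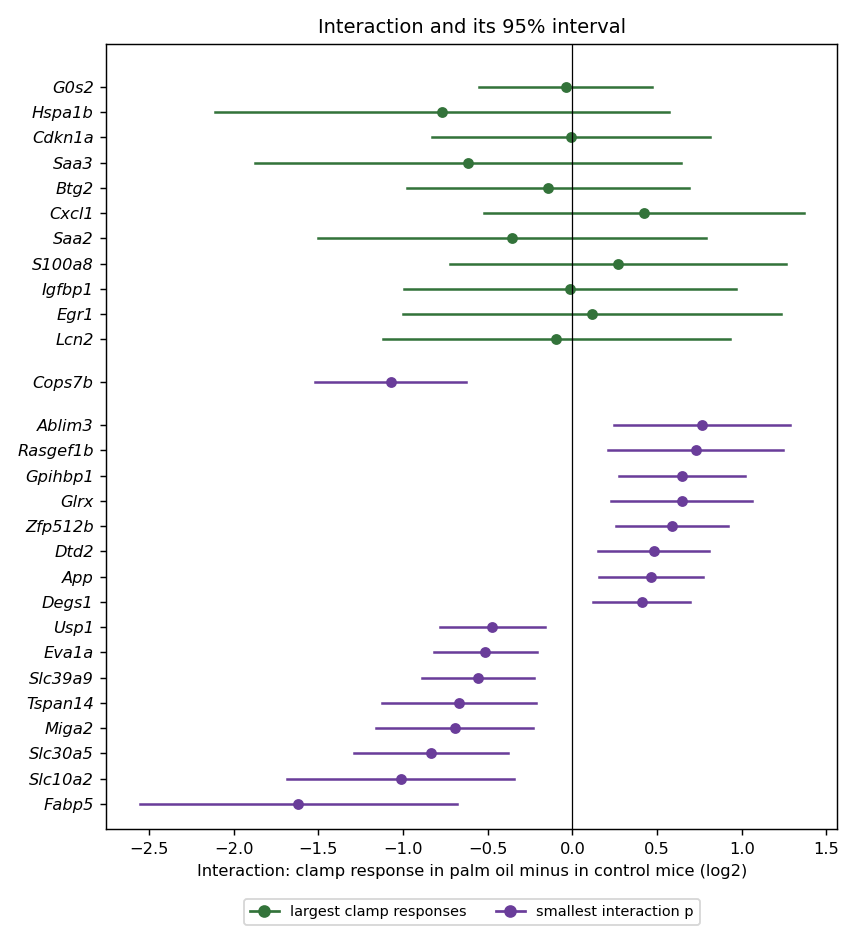
Interaction (log2) of single genes as points with 95% intervals as lines, green for the genes of the largest clamp responses and purple for those of the smallest unadjusted interaction p. The green intervals cross 0, from G0s2 (-0.55 to 0.47) to Hspa1b (-2.11 to 0.57). The purple genes lie on either side of 0 because they were chosen by that p, and none passed after adjustment over all genes.

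The gene with the smallest interaction p was Cops7b, a subunit of the COP9 signalosome that removes NEDD8 from cullin ubiquitin ligases. It was named after its value was seen, since its mean over all arrays, 3.85, is dim. Cops7b lay at 3.30, 3.59 and 4.38 in control basal, 3.49, 3.91 and 3.96 in control clamped, 4.16, 4.40 and 4.80 in palm oil basal and 2.93, 3.47 and 4.10 in palm oil clamped mice. Palm oil basal mice all lay above palm oil clamped mice, while the control groups overlapped. The interaction was -1.07 ± 0.22 (unadjusted p = 2.37e-05, adjusted p = 0.53; limma). The clamp response was 0.15 ± 0.16 in control mice, and after palm oil the gene fell by 0.92 (limma adjusted p = 3.23e-05). Without control basal replicate 1, the highest of its group, the interaction was -1.20 ± 0.20 with an adjusted p of 0.0336, and in no other fit with 1 array left out did any gene pass.

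Among genes with a mean of at least 4 there were 6600, of which 93 lay above 0 and 107 below 0 at an unadjusted p under 0.05 (3.03% of them). Of these 200 genes, 47 had a smaller rise after palm oil, 14 a larger rise, 35 a smaller fall and 3 a larger fall. For the other 101 the 2 responses had opposite signs. The 8 smallest p in each direction belonged to the genes described next, all with an adjusted p of 0.9998. Since the p chose them, their values are a description.

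Below 0, Slc30a5, the zinc transporter ZnT5 of the secretory pathway, lay at 4.97, 5.53 and 5.91 in control basal and at 6.21, 6.83 and 7.33 in control clamped mice. Palm oil basal mice lay at 5.38, 5.80 and 6.34 and palm oil clamped mice at 5.92, 6.47 and 6.86. The control groups did not overlap and the palm oil groups did, with an interaction of -0.83 ± 0.22 (unadjusted p = 6.83e-04; limma). The gene rose 2.73-fold in control and 1.53-fold in palm oil mice, and both rises passed. Slc39a9, the zinc importer ZIP9, rose in control mice by 0.40 and had a response of -0.15 after palm oil, which did not pass (interaction -0.56 ± 0.16).

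Fabp5, a cytosolic fatty acid binding protein, lay at 4.98, 5.45 and 6.42 in control basal and at 5.66, 6.84 and 9.50 in control clamped mice. In palm oil mice it lay at 5.83, 6.35 and 6.66 in basal and at 5.66, 6.20 and 6.80 in clamped animals. All groups overlapped, 1 control clamped mouse stood at the top, and the interaction was -1.62 ± 0.46. Without control clamped replicate 6 it was -1.24. All 4 probe sets of Fabp5 were below 0, from -0.97 to -1.80. Slc10a2, the apical sodium-dependent bile acid transporter, lay at 3.63 to 4.44 in control basal, 6.76 to 7.75 in control clamped, 3.74 to 5.92 in palm oil basal and 6.38 to 7.62 in palm oil clamped mice. Neither pair of basal and clamped groups overlapped, and it rose 9.07-fold in control and 4.49-fold in palm oil mice (interaction -1.01 ± 0.33).

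The remaining genes below 0 were Usp1, a deubiquitinase of DNA repair proteins, Eva1a, an endoplasmic reticulum protein of autophagy, the mitochondrial fusion factor Miga2, and the tetraspanin Tspan14. Usp1 rose by 0.75 in control mice and had a response of 0.28 after palm oil (interaction -0.47 ± 0.15). Eva1a and Tspan14 had responses of 0.03 and 0.02 in control mice and fell by 0.49 and 0.65 after palm oil. Miga2 fell in both, by 0.71 and 1.40. Of the 8 genes below 0, Miga2 was the 1 with a fall in both groups.

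Above 0, Gpihbp1, which anchors lipoprotein lipase on capillary endothelium, lay at 6.52, 6.89 and 7.00 in control basal and at 5.52, 6.41 and 6.69 in control clamped mice. The palm oil mice lay at 6.30, 6.55 and 7.02 basal and at 6.42, 6.63 and 6.99 clamped. Both pairs overlapped, the palm oil groups along almost their whole range, with an interaction of 0.65 ± 0.18. Its fall of 0.53 passed in control mice, and its response of 0.12 after palm oil did not. Sinusoidal endothelial markers, 16 genes, had a median interaction of 0.10 with 11 above 0, which turned to -0.03 without the arrays high in acinar transcripts, and their mean level was 5.34 to 5.90 in control clamped and 5.59 to 5.88 in palm oil clamped mice.

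Zfp512b, a zinc finger gene, fell by 0.92 in control and by 0.34 in palm oil mice (interaction 0.59 ± 0.16). Dtd2, a D-aminoacyl-tRNA deacylase, fell by 0.70 in control mice and had a response of -0.22 after palm oil (0.48 ± 0.16). Glrx, a glutaredoxin, App, the amyloid precursor protein, and Degs1, the dihydroceramide desaturase that makes ceramide, had responses of -0.44, -0.28 and -0.27 in control mice and of 0.20, 0.19 and 0.14 after palm oil, none of which passed. Their interactions were 0.64 ± 0.21, 0.46 ± 0.15 and 0.41 ± 0.14. Rasgef1b, a Ras family exchange factor, rose 1.85-fold in control and 3.06-fold in palm oil mice (0.73 ± 0.25), and Ablim3, an actin-binding LIM protein, rose 1.77-fold after palm oil with a response of 0.06 in control mice (0.76 ± 0.25).

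**Figure D3:**
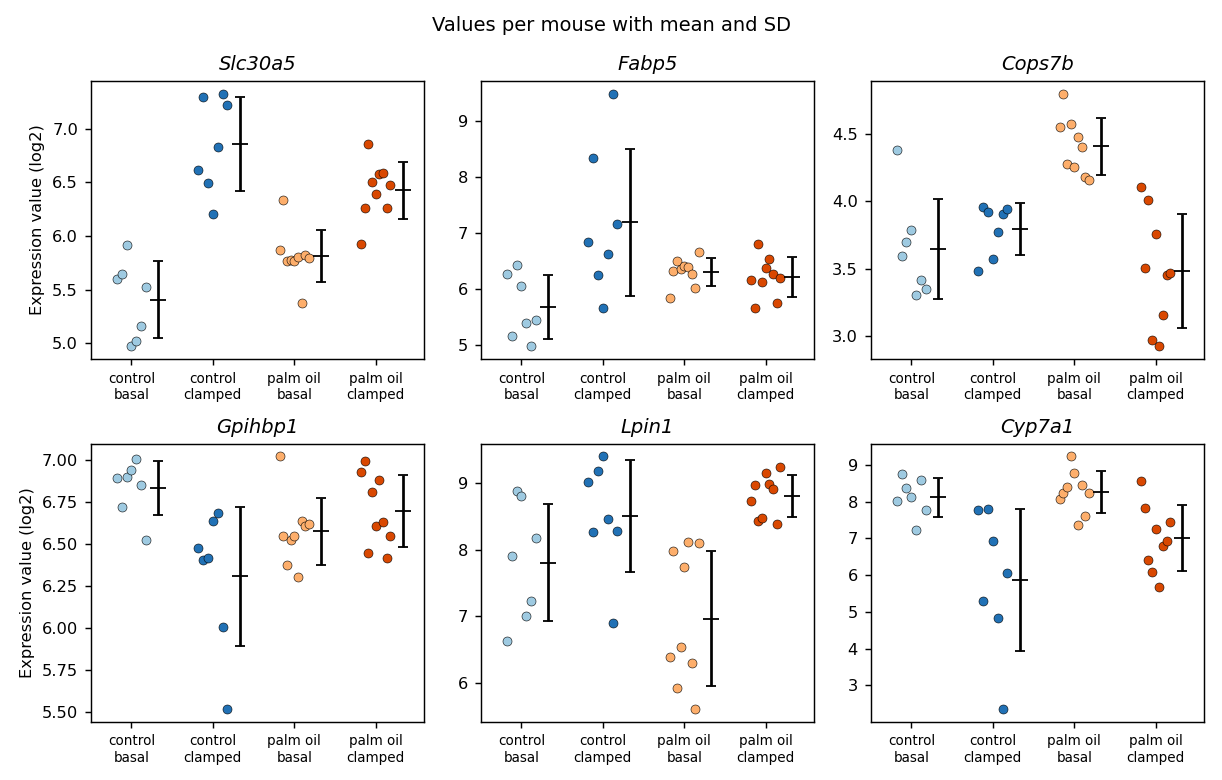
Log2 expression value of each mouse for 6 genes, with group mean and SD beside the points, in control basal (n = 7), control clamped (n = 7), palm oil basal (n = 9) and palm oil clamped mice (n = 9). Vertical axes differ between panels and do not start at 0. Slc30a5 rises further in control than in palm oil mice, 1 control clamped mouse of Fabp5 stands at 9.50 and 1 of Cyp7a1 at 2.35, and palm oil basal mice of Lpin1 spread from 5.61 to 8.12.

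Among genes of glucose handling, G6pc, the catalytic subunit of glucose-6-phosphatase, lay at 7.26, 8.0 and 8.44 in control basal and at 3.85, 5.30 and 8.54 in control clamped mice. Palm oil basal mice lay at 7.46, 7.97 and 8.83 and palm oil clamped mice at 4.13, 5.75 and 8.45. It fell in both (limma adjusted p = 0.00231 after water, 0.0113 after palm oil), and clamped mice spread over a range that reached the basal level in both gavage groups. The interval of its interaction ran from -0.82 to 2.07. Irs2, an insulin receptor substrate, rose 2.35-fold after palm oil, and its response in control mice, 1.86-fold, did not pass. Its interaction was 0.34 ± 0.41. It was -0.04 without the arrays high in acinar transcripts and 0.69 with basal animals from number 44 on left out.

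Pck1, the cytosolic phosphoenolpyruvate carboxykinase, spanned 10.75 to 11.33 in control and 10.82 to 11.24 in palm oil clamped mice, with an interval of -0.14 to 0.42. Insr, the insulin receptor, and Foxo1 had intervals of -0.28 to 0.25 and -0.26 to 0.41. The list of 26 glucose output and FOXO1 genes had a median interaction of 0.11 with 18 above 0, with 0.04 without control clamped replicate 6 and 0.23 with basal animals from number 44 on left out. Onecut1, the hepatocyte factor HNF6, had an interaction of 1.04 ± 0.47, with a fall of 1.14 that passed in control mice and a response of -0.11 after palm oil. Bcl6, a transcriptional repressor of lipid genes, had one of -0.84 ± 0.43, and it rose 2.81-fold in control mice with a response of 0.65 after palm oil. Insulin signalling genes (26) had a median of -0.02, with 10 above 0, and glycogen genes (15) one of 0.10, with 11 above 0 (0.04 without control basal replicate 1). Without the arrays high in acinar transcripts Onecut1 stood at 2.20 and Bcl6 at -1.67. Grb10, an adaptor that restrains the insulin receptor, is dim (mean 1.68) and stood at 0.45 ± 0.19. Ppp1r3b, a glycogen-targeting phosphatase subunit, stood at 0.49 ± 0.29 (0.12 without the basal arrays numbered 44 or higher), and Pygl, liver glycogen phosphorylase, at 0.32 ± 0.20.

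In lipid metabolism Lpin1, the phosphatidate phosphatase lipin 1, had the highest interaction of the fat and triglyceride lists. It lay at 6.64, 7.90 and 8.89 in control basal and at 6.90, 8.46 and 9.41 in control clamped mice. In palm oil mice it lay at 5.61, 6.54 and 8.12 in basal and at 8.39, 8.91 and 9.25 in clamped animals. The palm oil groups did not overlap and the control groups did, with an interaction of 1.15 ± 0.52 (unadjusted p = 0.0345; limma). It rose 3.60-fold after palm oil, and its response of 0.69 in control mice did not pass. Palm oil minus control was -0.84 in basal and 0.31 in clamped mice, so that most of the interaction lay in the basal groups. Without the arrays high in acinar transcripts the interaction was 1.88.

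The triglyceride and lipid droplet list (27) had a median of 0.14 with 19 above 0, which was 0.08 without control clamped replicate 6 and 0.03 with array weights. The lipogenesis list (22) had one of 0.02 with 13 above 0, which was 0.18 without control clamped replicate 4. Acss2, which makes acetyl-CoA from acetate, fell by 0.80 in control mice and had a response of -0.29 after palm oil (0.52 ± 0.25). Srebf1, the lipogenic transcription factor, fell by 0.82 and 0.66, to a median of 3.92 in control and 4.07 in palm oil clamped mice, and Fasn, fatty acid synthase, passed in neither group. In the ceramide and sphingolipid list (23, median -0.01, 11 above 0), Cers6, a ceramide synthase, rose 3.67-fold in control and 2.39-fold in palm oil mice (-0.62 ± 0.33).

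Most genes of fat oxidation and bile acid synthesis had interactions above 0, none of them called. Over all genes 4.09% fell in control and 3.8% in palm oil mice. Of 24 beta-oxidation genes 13 fell in control and 10 in palm oil mice (median responses -0.36 and -0.26), and the median interaction was 0.12 with 20 above 0. Slc25a20, the carnitine-acylcarnitine carrier of mitochondria, fell by 0.61 in control mice and had a response of -0.23 after palm oil (0.37 ± 0.19). Acadm, medium-chain acyl-CoA dehydrogenase, fell by 0.48 and 0.27. Of 24 PPARA targets 16 fell after water and 13 after palm oil, and the median interaction was 0.10 with 15 above 0. Acot1, a cytosolic acyl-CoA thioesterase, fell by 1.5 and 0.85 (0.65 ± 0.35). Cpt1a, which commits fatty acids to oxidation, fell by 0.34 in control mice, where it passed. Its response of -0.25 after palm oil did not pass, and its interaction was 0.09 ± 0.14. Both medians moved with single arrays and with sets of arrays. Without control clamped replicate 6 they were 0.03 for beta-oxidation and 0.01 for PPARA targets. Without the 12 arrays high in acinar transcripts they were -0.04 and -0.12, with Slc25a20 at 0.05 and Acot1 at -0.14. Without control clamped replicate 6 Acot1 stood at 0.36.

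Bile acid genes (21) had a median of 0.12 with 19 above 0, and 7 fell in control against 5 in palm oil mice (4.09% and 3.8% of all genes). Cyp7a1, whose enzyme starts and limits the classical bile acid pathway, lay at 7.22, 8.13 and 8.76 in control basal and at 2.35, 6.07 and 7.81 in control clamped mice. The palm oil mice lay at 7.35, 8.24 and 9.23 basal and at 5.68, 6.93 and 8.57 clamped. All of these groups overlapped, and its fall passed in control mice (limma adjusted p = 0.00449) but not after palm oil (0.103). Its interaction of 0.99 was 0.41 without control clamped replicate 6, the lowest mouse. Cyp8b1, which sets the share of cholic acid, fell by 1.54 and 1.02, and its interaction of 0.52 ± 0.43 was 0.11 without that array. The median of the list was 0.00 without the arrays high in acinar transcripts.

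Genes of protein folding in the endoplasmic reticulum lay below 0 nearly throughout. This unfolded protein response senses misfolded protein through IRE1, PERK and ATF6 and raises chaperones and disulfide isomerases. Of 27 measured genes 26 had an interaction below 0, with a median of -0.27, against 50.3% of all genes below 0. In control mice 17 rose with the clamp and after palm oil 5 did, with median responses of 0.69 and 0.25. The rising share of all genes was also larger in control mice, 4.66% against 3.76%. Palm oil minus control was above 0 for 24 of 27 in basal mice (median 0.22) and below 0 for 25 of 27 in clamped mice (median -0.10). The median interaction thus combines a higher basal and a lower clamped group mean. The median clamped mouse was not lower after palm oil, with a list mean of 7.59 against 7.52 in control mice. No member was called, and 1, Hspa13, had an unadjusted p under 0.05.

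The promoters of 10 of the 23 list members with an entry in the RefSeq promoter table (build GRCm38.p6) held the endoplasmic reticulum stress response element. It was searched on both strands as CCAAT, any 9 bases, then CCACG, from 250 bases before to 50 after the start. Among all 32851 listed promoters, 39 held it (0.119%), which belong to 37 of 27025 genes (0.137%). The 10 genes were Hspa5, Hsp90b1, Pdia6, Calr, Canx, Dnajc3, Creld2, Syvn1, Derl3 and Ero1b. A match describes letters only and shows no binding. Of these, 3 are printed because their genes run from weaker to stronger interactions. Hspa5 (chr2:34771840-34772139, plus strand) carries the element on the gene's strand from base -65. Creld2 (chr15:88819396-88819695, plus strand) and Ero1b (chr13:12565633-12565932, plus strand) carry it on the opposite strand, from bases -126 and -201. Capitals mark the element.
Hspa5: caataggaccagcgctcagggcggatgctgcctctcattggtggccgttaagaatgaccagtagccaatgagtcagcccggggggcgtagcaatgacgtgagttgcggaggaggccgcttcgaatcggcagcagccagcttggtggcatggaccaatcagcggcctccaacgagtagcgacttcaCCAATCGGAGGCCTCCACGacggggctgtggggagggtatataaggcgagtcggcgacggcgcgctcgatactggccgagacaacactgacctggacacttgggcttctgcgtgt
Creld2: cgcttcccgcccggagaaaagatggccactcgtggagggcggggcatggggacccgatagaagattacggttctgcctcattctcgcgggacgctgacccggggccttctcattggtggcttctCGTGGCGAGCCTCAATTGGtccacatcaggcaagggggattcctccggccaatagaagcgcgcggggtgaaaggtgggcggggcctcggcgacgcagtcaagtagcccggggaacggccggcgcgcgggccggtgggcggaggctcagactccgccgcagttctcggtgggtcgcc
Ero1b: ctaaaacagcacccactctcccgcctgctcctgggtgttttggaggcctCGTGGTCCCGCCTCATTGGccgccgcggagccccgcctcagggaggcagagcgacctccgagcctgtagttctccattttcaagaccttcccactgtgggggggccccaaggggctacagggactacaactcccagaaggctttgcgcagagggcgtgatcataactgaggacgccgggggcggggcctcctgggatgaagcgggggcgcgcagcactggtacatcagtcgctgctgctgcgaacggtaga

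Creld2, a secreted disulfide isomerase-like protein of the endoplasmic reticulum, lay at 5.43, 5.69 and 5.90 in control basal and at 5.77, 6.73 and 9.26 in control clamped mice. Palm oil basal mice lay at 5.21, 6.57 and 7.15 and palm oil clamped mice at 5.90, 6.87 and 8.06. Both pairs of groups overlapped, and the interaction was -1.02 ± 0.52 (unadjusted p = 0.0594; limma). It rose 3.08-fold in control mice, and its 1.52-fold difference after palm oil did not pass. Without control clamped replicate 6 the interaction was -0.69. Hspa5, the chaperone BiP, had responses of 0.86 and 0.62 and an interaction of -0.24 ± 0.25, and Ero1b, which oxidises disulfide isomerases, rose by 0.80 in control mice with a response of 0.26 after palm oil (-0.54 ± 0.28).

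Sdf2l1, a cofactor of BiP, stood at -0.99 ± 0.49. It lay at 5.05, 5.77 and 6.29 in control basal and at 5.76, 6.41 and 9.17 in control clamped mice. In palm oil mice it lay at 5.48, 6.69 and 7.21 in basal and at 5.85, 6.81 and 7.62 in clamped animals, so that all groups overlapped and palm oil basal mice had a median above that of control clamped mice. Without control clamped replicate 6 its interaction was -0.64. Hspa13, an Hsp70 family ATPase of microsomes, rose 1.73-fold in control mice and had a 1.09-fold difference after palm oil (-0.66 ± 0.29). Derl3, of the degradation pathway, Hyou1, a chaperone, and Syvn1, a ubiquitin ligase, had values of -1.17 ± 0.64, -0.65 ± 0.40 and -0.67 ± 0.42. Sec61b, of the translocon, and Pdia3, a disulfide isomerase, had -0.44 ± 0.23 and -0.37 ± 0.20, and a dimmer probe set of Sec61b had 0.12. Herpud1, which takes part in degradation, was the member above 0, at 0.17 ± 0.19.

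In single mice the mean level of the 27 genes was 6.91, 7.05 and 7.18 in control basal and 7.16, 7.52 and 8.60 in control clamped mice. After palm oil it was 7.01, 7.33 and 7.45 in basal and 7.15, 7.59 and 8.03 in clamped mice. The group medians of clamped mice were close, and 2 control clamped mice, replicates 6 and 7 at 8.60 and 8.40, stood above all others. Without replicate 6 the median interaction was -0.18 with 26 of 27 below 0, and without replicate 7 it was -0.20. Without the arrays high in acinar transcripts it was -0.32, again with 26 of 27 below 0. The integrated stress response list (20 genes of ATF4 and CHOP) had a median of -0.15 with 15 below 0. Its member Stc2, a secreted glycoprotein, is dim (mean 1.3) and had -0.42 ± 0.18, and Cth, which makes cysteine, had 0.46 ± 0.30, or 0.17 without control clamped replicate 6.

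**Figure D4:**
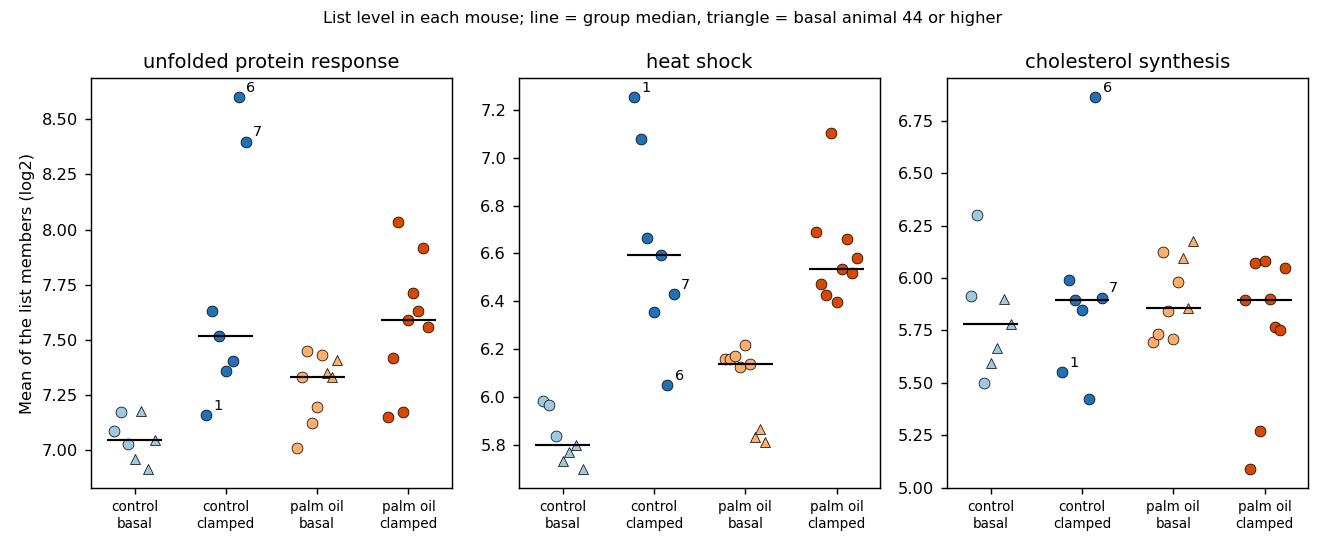
Mean log2 level of the unfolded protein response, heat shock and cholesterol synthesis lists in each mouse, with group medians as lines, triangles for basal animals numbered 44 or higher and the numbers 1, 6 and 7 at those replicates of the control clamped group. Vertical axes differ and do not start at 0. Replicates 6 and 7 lead the first panel at 8.60 and 8.40, replicate 1 leads the second at 7.25 and replicate 6 the third at 6.86.

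Heat shock genes, which HSF1 controls, had 18 of 20 members below 0 and a median of -0.19. In control mice 15 rose and after palm oil 10, with median responses of 0.68 and 0.39. Of all genes 4.66% rose in control and 3.76% in palm oil mice. Hsph1, the co-chaperone Hsp110, lay at 5.16, 5.63 and 6.00 in control basal and at 6.30, 6.82 and 7.53 in control clamped mice. The palm oil mice lay at 5.73, 6.11 and 6.55 basal and at 6.42, 6.76 and 7.56 clamped. The control groups did not overlap and the palm oil groups did, with rises of 2.38-fold and 1.68-fold, both called, and an interaction of -0.50 ± 0.23 (unadjusted p = 0.0345; limma). Palm oil minus control was 0.46 in basal and -0.04 in clamped mice.

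Hsp90aa1, an Hsp90 chaperone, Stip1, which links Hsp70 and Hsp90, and Bag3, a co-chaperone of Hsp70, rose in both groups with interactions of -0.36 ± 0.18, -0.26 ± 0.15 and -0.30 ± 0.23. Ahsa1, an activator of Hsp90, rose in control mice (-0.25 ± 0.14). Hspa1a, an inducible Hsp70, is dim and had -1.0 ± 0.61. The mean level of the list was highest in control clamped replicate 1, at 7.25, and lowest among control clamped mice in replicate 6, at 6.05. Without replicate 1 the median interaction was -0.09 with 16 of 20 members below 0. Basal animals numbered 44 or higher had lower levels (5.75 control, 5.84 palm oil) than the other basal mice (5.93 and 6.16). With these arrays marked as a block the median was -0.10, and with them left out it was -0.17 with 14 of 20 members below 0. Without the arrays high in acinar transcripts it was further from 0, at -0.33 with 20 of 20 members below 0. The heat shock element, searched as GAA, any 2 bases, TTC, any 2 bases, GAA or its inverted form, was in promoters of 4 of 17 members with an entry (Hsph1, Hspd1, Hspe1 and Chordc1), in those of 0.662% of all genes and in 0.603% of all promoters. Hspd1 and Hspe1 are divergent neighbours whose promoter windows overlap, so their match is counted for both.

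Cholesterol synthesis genes, which SREBP2 controls, had 17 of 20 members below 0 and a median of -0.26. Of the 20 members 0 rose on either side, and 2 fell in control and 3 in palm oil mice. Of all genes 4.09% fell in control and 3.8% in palm oil mice. The list had median responses of 0.13 and -0.17. Sqle, squalene epoxidase, lay at 3.79, 5.45 and 6.31 in control basal and at 5.08, 6.31 and 8.60 in control clamped mice. Palm oil basal mice lay at 4.34, 5.16 and 6.52 and palm oil clamped mice at 3.98, 6.15 and 6.91. All groups overlapped, and the interaction of -0.72 ± 0.60 was -0.34 without control clamped replicate 6. Cyp51, lanosterol demethylase, had -0.72 ± 0.42, Fdps, farnesyl diphosphate synthase, -0.59 ± 0.39, Mvd, mevalonate decarboxylase, -0.50 ± 0.42, Lss, lanosterol synthase, -0.46 ± 0.34, and Nsdhl, a sterol dehydrogenase, -0.40 ± 0.31. The mean level of the list was 6.86 in control clamped replicate 6 and 5.43 to 5.99 in the other control clamped mice. That array left out, the median interaction was -0.09, with Cyp51 at -0.47, Fdps at -0.30, Mvd at -0.19, Lss at -0.20 and Nsdhl at -0.25. With the basal animals from number 44 on left out the median was -0.07 with 15 of 20 members below 0. Lss then stood at -0.0032 and Nsdhl at 0.01. Without the arrays high in acinar transcripts the median was further from 0, at -0.45 with 20 of 20 members below 0.

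**Figure D5:**
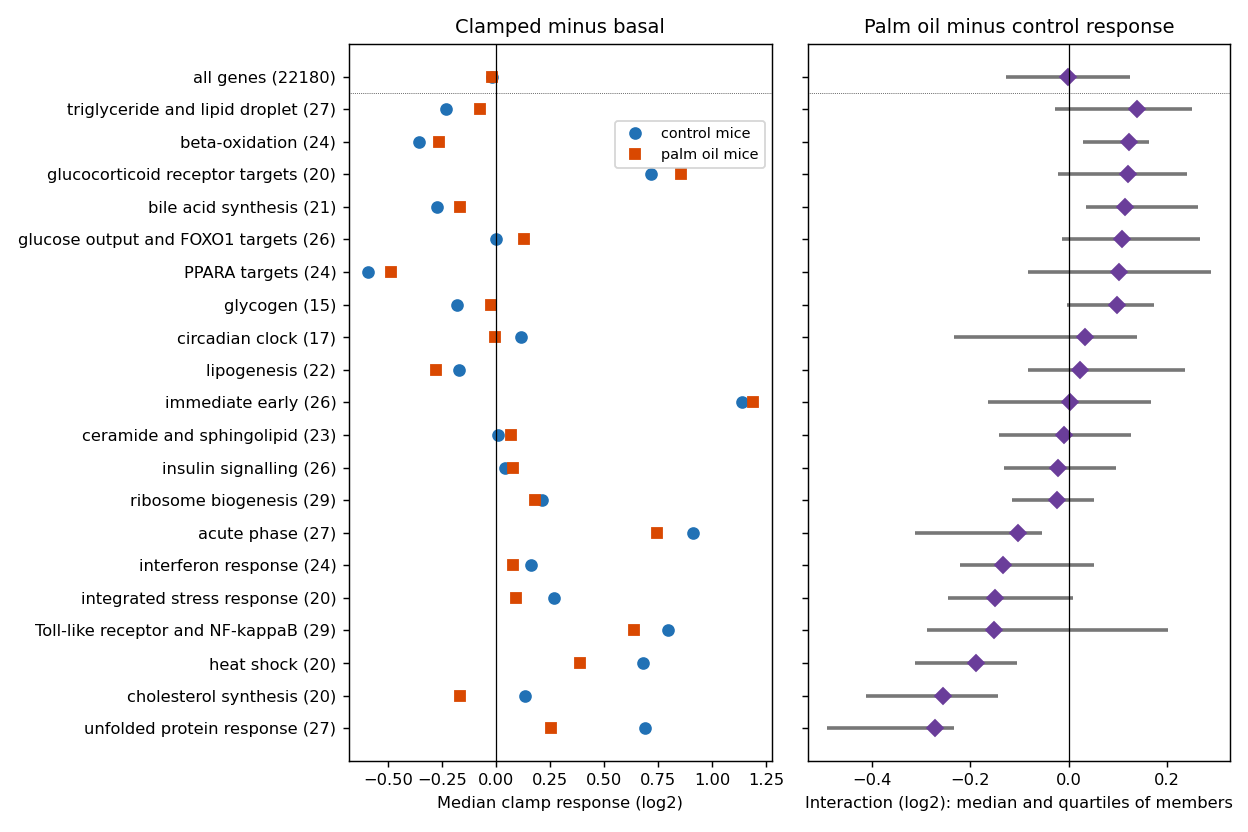
Left, median clamp response (log2) of each pathway list, cell type markers left out, in control mice (circles) and palm oil mice (squares), with the number of measured genes in brackets. Right, median interaction (diamonds) with the quartiles of the members as lines, ordered by the median, with all genes at the top. The unfolded protein response list lies lowest at -0.27 and the triglyceride list highest of those plotted at 0.14, the lines show the spread over genes and not an error, and no list was tested.

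Inflammatory and other lists lay closer to all genes than the unfolded protein response, heat shock and cholesterol synthesis lists did. Acute phase genes (27) had 25 rises on each side, beside 4.66% of all genes in control and 3.76% in palm oil mice. Their median was -0.10 with 23 below 0, or -0.28 without the arrays high in acinar transcripts. Crp, C-reactive protein, rose by 0.59 and 0.39. A2m, a protease inhibitor, stood at 1.35 to 7.18 in control clamped mice, and its interaction of -1.0 ± 0.66 was -0.23 without replicate 6, the mouse at 7.18. Toll-like receptor and NF-kappaB genes (29) had a median of -0.15 with 17 below 0, and it was 0.12 without control clamped replicate 7. Among them Vcam1, a leukocyte adhesion molecule, rose 1.84-fold and 2.65-fold (0.53 ± 0.24), Il1a rose 1.91-fold and 2.68-fold (0.49 ± 0.29), and Irak2, an interleukin 1 receptor kinase, fell by 0.67 after palm oil (-0.35 ± 0.19). Tlr4, Traf6 and Birc3 passed on neither side, with 0.23 ± 0.16, -0.23 ± 0.16 and -0.36 ± 0.25. Interferon response genes (24) had a median of -0.13 with 16 below 0, and it was 0.01 without control clamped replicate 7. Irf1 and Mx1 stood at -0.40 ± 0.23 and -0.23 ± 0.14.

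Immediate early genes (26) had a median of 0.00 with 13 above 0, and it was -0.12 without control clamped replicate 6. They had 18 rises on each side, beside 4.66% of all genes in control and 3.76% in palm oil mice. Their member Myc, dim at a mean of 3.25, lay at 3.23, 3.44 and 4.33 in control basal, 2.18, 3.10 and 3.75 in control clamped, 2.59, 3.02 and 3.31 in palm oil basal and 2.75, 3.39 and 3.86 in palm oil clamped mice. All groups overlapped, and the interaction was 0.94 ± 0.26 (unadjusted p = 7.95e-04; limma), with a fall of 0.61 called in control mice. Klf4 had -0.50 ± 0.25. Glucocorticoid receptor targets (20) had 13 rises in control and 17 in palm oil mice, beside the same shares of all genes. Their median interaction was 0.12 with 13 above 0, none of them called. That median was 0.04 without control basal replicate 2 and turned to -0.03 without the arrays high in acinar transcripts. Circadian clock genes (17) had a median of 0.03, where Cry2, a repressor of the clock, stood at -0.45 ± 0.20 and Bhlhe40 at -0.27 ± 0.19. Ribosome biogenesis genes (29) had a median of -0.02, where the rRNA methyltransferase Nop2 rose by 0.35 in control mice and had -0.03 after palm oil (-0.38 ± 0.15), and Noc4l stood at 0.26 ± 0.20.

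Markers of cell types had medians between -0.10 and 0.34. Kupffer cell markers (15) had a median interaction of 0.03, stellate cell markers (15) 0.08, cholangiocyte markers (10) 0.04, T and NK cell markers (13) 0.00, B cell markers (9) -0.03, adipocyte markers (7) -0.10, erythroid markers (4) 0.13 and hepatocyte markers (15) 0.02. Without the arrays high in acinar transcripts stellate cell markers stood at -0.10, hepatocyte markers at -0.15, Kupffer cell markers at 0.16, B cell markers at 0.15 and erythroid markers at 0.27. Pancreatic acinar markers (17) had 0.34 with 16 above 0. Their mean level per mouse ran from 2.21 to 8.71 in control basal, 1.65 to 8.42 in control clamped, 1.72 to 9.26 in palm oil basal and 1.71 to 7.20 in palm oil clamped mice, and the median changed sign with the arrays used (-0.24 with the block for animals numbered 44 or higher, 1.38 without control clamped replicate 3).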

How the data were processed

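Per the labels' protocols, amplified and biotinylated liver RNA of 32 mice was put on Affymetrix Mouse Gene 2.1 ST arrays. Per the submitters' processing notes, the authors ran RMA (Affymetrix Expression Console, version 1.3.0.187), which gave the log2 values used here as deposited. RMA compresses low values. The genome build of the array annotation is not given in the sources used here.

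A platform annotation gave 23521 of 41345 probe sets 1 symbol, 1814 several and 16010 none. Per symbol the probe set with the highest mean was kept (22180 genes). Groups came from the titles. limma 3.58.1 (lmFit and eBayes, R 4.3.3) was fitted to all arrays with 1 mean per group and 28 residual degrees of freedom. P-values were adjusted over all genes (Benjamini-Hochberg, threshold 0.05). Values after ± are standard errors, and each adjusted p is limma's. The functions were tested on simulated data.

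The comparison and all lists, 20 of pathways and 11 of cell types, were chosen with earlier results of these data known, and no list was tested. Named genes were the 10 largest rises and falls of the mean clamp response, the 8 smallest interaction p in each direction among genes with a mean of at least 4, anchor genes of lipid and glucose handling, and the 2 members of each pathway list with the smallest p (6 for the 4 lists farthest from all genes). Predicted genes, small RNAs and olfactory receptors were left out of the first 2 rules, and not every gene so chosen is printed. Hspa5 was added for its promoter, and Derl3, Hyou1, Syvn1, Herpud1 and Cops7b after their values were seen.

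Alternatives were fewer genes (the brighter part), averaged probe sets, 2 scalings (a common median, quantile normalization), a prior with trend, weighted arrays, blocks by replicate number, a term for the animal number, animals numbered 44 or higher left out or as a block, the acinar level as a term or a limit of 6, a threshold of 0.1 and each array left out.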

Additional observations from a re-analysis of the deposited data

Results flagged for a closer look

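Samples that lay far from the rest of their group were looked for in 532 groups of values (genes and list means by treatment group), and 43 met Dixon's 95% limit, where chance gives about 1 in 20, or 26.6. No explanation was weighed.

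Control clamped replicate 6 stood apart for 8 values. It was low for Igfbp1 (8.57, others 9.58 to 10.34), Btg2 (7.07, others 8.37 to 9.02), Degs1 (6.30) and the mean of glucocorticoid receptor targets (6.74, others 7.14 to 7.26), and high for Lss (6.09), Sqle (8.60), A2m (7.18) and the mean of cholesterol synthesis genes (6.86). Control clamped replicate 3 was high for the acinar genes Ctrb1 (11.09), Sycn (9.62), Clps (9.37), Cel (8.80), Cpa1 (10.2), Reg1 (9.82), Cpb1 (9.63), Prss2 (9.02) and Cela3b (8.49) and for the acinar mean (8.42, others 1.65 to 2.24).

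Other control clamped mice stood apart for Zfp512b (replicate 7, 3.00), Acox2 (replicate 7, 7.59), G0s2 (replicate 4, 5.93), Eva1a (replicate 1, 5.0) and Tlr4 (replicate 5, 2.30). In control basal mice this held for Socs3 (3.00), Grb10 (2.55) and Irf1 (3.47), all of replicate 4, for Srebf1 (replicate 5, 5.54), Fasn (replicate 3, 5.26) and Tspan14 (replicate 6, 3.62).

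In palm oil basal mice it held for Gpihbp1 (7.02) and Degs1 (7.23) of replicate 1, for App (5.75), Ppargc1a (3.94) and the B cell mean (2.15) of replicate 7, for Dtd2 (4.86) and Nsdhl (6.49) of replicate 9 and for Bcl6 (6.71) of replicate 4. In palm oil clamped mice it held for Pck1 (10.82) and the heat shock mean (7.10) of replicate 4, for Pdk4 (replicate 6, 6.25), Acox2 (replicate 2, 8.71), the insulin signalling mean (replicate 8, 5.58) and the erythroid mean (replicate 1, 2.25).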

How the results depend on the processing

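The interaction was called for 0 genes under all 13 alternatives that keep or drop whole sets of arrays or change the fit. At an unadjusted p under 0.05 there were 385 genes within the brighter part. Over all genes there were 746 (prior with trend) to 1503 (without arrays high in acinar transcripts), against 773 in the main fit. The 1503 lie above the 1109 expected if no gene had an interaction. With each array left out the interaction was called for 0 to 1 genes, the 1 being Cops7b, with 750 to 954 genes at an unadjusted p under 0.05. Genes called for the clamp in control mice numbered 1940, 1517 to 2007 with each array left out, 1026 without the basal arrays numbered 44 or higher and 993 without the arrays high in acinar transcripts, where fewer arrays enter. In palm oil mice they numbered 1678, 1385 to 1799 with each array left out and 736 without the arrays high in acinar transcripts. The median of the turned interaction over clamp genes, -0.07, stayed below 0 throughout, from -0.10 to -0.04 with each array left out and from -0.09 to -0.06 under the others. With the replicate number as a block the interaction was still called for 0 genes (830 at an unadjusted p under 0.05), and the turned median was -0.08. The clamp was then called for 1923 genes in control and 1629 in palm oil mice, against 1940 and 1678 without the block. The numbers do not pair the mice: arrays of the same number in other groups had a median correlation of deviations of 0.03 against 0.00 for other numbers, 13 of 44 same-number pairs were over 0.1, and 5 arrays matched their own number best. Of 4483 single-gene values under alternatives 1 passed, that of Cops7b. Of the 31 list medians, none of them tested, 21 changed sign in at least 1 alternative and 9 others moved by over 1.5 times, so that 1, of the integrated stress response list, did neither. Of 102 single-gene interactions 24 changed sign in at least 1 alternative and 51 others moved by over 1.5 times. The cause was not tested. Interactions of dim genes are limited by signal near background.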
